A study of Homo sapiens with 3 samples.

Results

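The protein kinase CK2 is built from catalytic and regulatory subunits that are encoded by 3 genes, CSNK2A1, CSNK2A2 and CSNK2B, and the chromatin at these genes is described here. The members are all called regions whose centre lay within hg19 windows around the genes: chr20:458000-530000 for CSNK2A1 (minus strand), chr16:58186000-58237000 for CSNK2A2 (minus strand) and chr6:31629000-31642000 for CSNK2B (plus strand). There were 12 such regions of 59983 in all: 3 of 13382 in the CK2α list, 5 of 24782 in the Pol II list with TBBz and 4 of 21819 in the Pol II list with DMSO. By gene, 4 of them stood at CSNK2A1, 6 at CSNK2A2 and 2 at CSNK2B.

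The lists came from chromatin immunoprecipitation sequencing (ChIP-seq), which recovers DNA bound by a protein, in LNCaP cells, a human prostate carcinoma line that responds to androgen. All 3 cultures, at passages 40 to 45, spent 3 days in 5% charcoal-stripped serum before 100 nM dihydrotestosterone (DHT), the androgen that binds the androgen receptor, so no culture was free of hormone. One library was made with an antibody to CK2α from cells given DHT and no inhibitor (for 2.5 hours by the treatment label, 90 min by the protocol). The others were made with an antibody to RNA polymerase II (Pol II), from cells given TBBz at 25 μM, a benzimidazole compound used to inhibit CK2, for 2.5 hours with DHT in the last 1.5 hours, or given the vehicle DMSO (labelled as 25 μM) and DHT on the same schedule. Both Pol II libraries carry a source label that mentions TBBz, and their treatment labels, which decide the grouping here, were not checked by any value. The libraries held 19021404 tags for CK2α, 22345614 for TBBz and 15466579 for DMSO. Of these, the caller counted 313973 in regions for CK2α, 2814886 for TBBz and 1050304 for DMSO. The libraries thus differed in enrichment, with CK2α the lowest, and the calling command lists no control. Each group had 1 library, so no spread between replicates exists and no difference between conditions was tested.

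CK2 is usually a tetramer in which a dimer of the regulatory subunit holds a pair of catalytic subunits. CSNK2A1 encodes the catalytic subunit CK2α, CSNK2A2 encodes the closely related catalytic subunit CK2α′, and CSNK2B encodes the regulatory subunit CK2β, which joins the catalytic subunits and takes part in choosing substrates. The kinase phosphorylates serine and threonine residues in acidic surroundings, is active in most cells, and has many substrates in the nucleus, among them proteins of the transcription machinery. Pol II gathers shortly after the start of many active genes before it is released into the gene body.

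The promoters are shown because all but 3 of the 12 regions stood toward the upstream edges of the windows. RefSeq promoters were found for 3 of 3 genes, each from 250 bases before to 50 bases after the annotated start, on the gene's own strand in GRCh38.p14. Since the regions are in hg19, the place of a region within these sequences was not determined. Capitals mark every match, on either strand, to GGGCGG (the GC box, bound by Sp1-like factors) and to CCGGAA (a core of sites bound by ETS factors). No GC box match overlapped an ETS core match.
CSNK2A1, chr20:543741-544040, minus strand: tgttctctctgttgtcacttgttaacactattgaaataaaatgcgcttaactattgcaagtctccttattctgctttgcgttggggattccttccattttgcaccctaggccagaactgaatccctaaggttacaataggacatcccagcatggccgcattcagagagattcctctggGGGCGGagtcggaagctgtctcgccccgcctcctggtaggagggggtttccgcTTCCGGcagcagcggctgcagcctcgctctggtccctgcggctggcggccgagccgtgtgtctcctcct
CSNK2A2, chr16:58198057-58198356, minus strand: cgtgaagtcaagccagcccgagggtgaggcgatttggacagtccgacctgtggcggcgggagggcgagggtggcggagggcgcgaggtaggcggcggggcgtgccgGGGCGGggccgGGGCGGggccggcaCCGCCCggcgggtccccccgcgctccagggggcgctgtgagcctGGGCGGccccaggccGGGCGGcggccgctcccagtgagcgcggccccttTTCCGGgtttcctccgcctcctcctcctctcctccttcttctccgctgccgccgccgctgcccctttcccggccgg
CSNK2B, chr6:31665830-31666129, plus strand: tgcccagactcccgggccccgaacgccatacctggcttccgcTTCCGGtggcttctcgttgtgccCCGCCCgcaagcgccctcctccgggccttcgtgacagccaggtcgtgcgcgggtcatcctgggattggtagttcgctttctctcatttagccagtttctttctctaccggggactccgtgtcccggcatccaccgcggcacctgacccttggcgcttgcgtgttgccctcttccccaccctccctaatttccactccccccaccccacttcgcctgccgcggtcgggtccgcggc

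All 3 promoters held at least 1 match to each of these motifs. Of 35114 RefSeq promoters of the same length, 45.0% held a GC box match, 17.2% an ETS core match and 11.3% both. CSNK2A2 carried 5 GC box matches, beginning 144, 133, 119, 75 and 60 bases before the annotated start. CSNK2A1 carried 1, beginning 72 bases before it, and CSNK2B carried 1, beginning 185 bases before it. The ETS core match stood close to the start in the genes of the catalytic subunits, beginning 19 bases before it in CSNK2A1 and 26 bases before it in CSNK2A2, and 208 bases before it in CSNK2B.

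The promoters differed in base composition. CSNK2A2 had 78.3% G and C, more than 95.5% of the promoters, against 66.3% in CSNK2B and 55.3% in CSNK2A1. The count of CpG dinucleotides was 39 in CSNK2A2, 28 in CSNK2B and 15 in CSNK2A1. Relative to the count expected from the C and G present, the order changed. This ratio was 0.908 in CSNK2B, 0.849 in CSNK2A2 and 0.655 in CSNK2A1, higher than in 81.6%, 74.1% and 54.6% of the promoters. The sequence CCAAT (the CCAAT box, either strand) matched once, in CSNK2B, and in 34.6% of all promoters. AGAACA, the half-site of an androgen response element, matched once, at the upstream end of the CSNK2A1 sequence, and in 14.8% of all promoters. TATAAA (the TATA box, in 11.5% of promoters), TGACGTCA (the cAMP response element, 1.85%) and CACGTG (the E box, 7.26%) were searched on both strands and matched in 0 of the 3. The motifs were chosen after these promoters had been read, and a match is a run of letters, not a measured binding site.

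**Figure D1:**
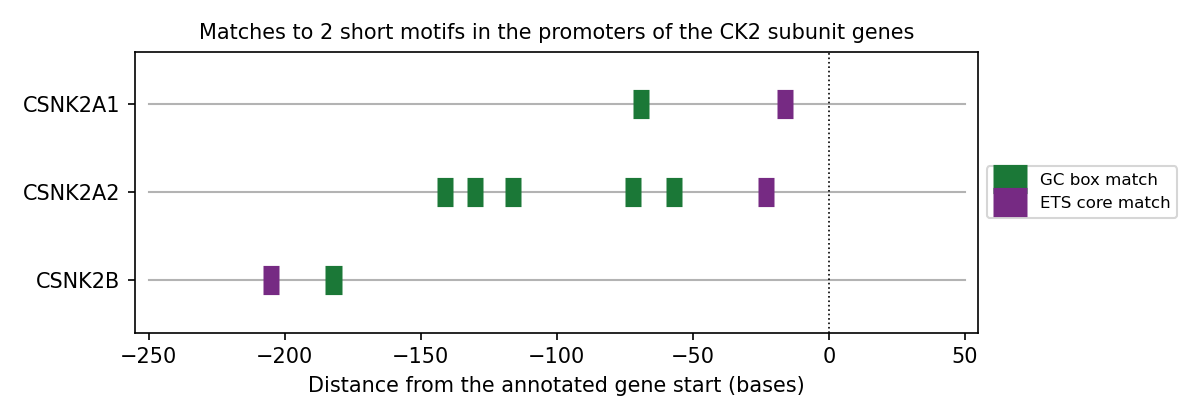
Positions of matches to the GC box (green) and the ETS core (purple) in the RefSeq promoters of CSNK2A1, CSNK2A2 and CSNK2B, in bases from the annotated start (dotted line). CSNK2A2 holds 5 of the GC box matches, and each gene holds 1 ETS core match.

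The first question was where CK2α and Pol II stood along the genes of the kinase itself. Each gene had a single site near the upstream edge of its window where both Pol II libraries had a region. In the direction of transcription this site lay 5.67 kb inside the CSNK2A1 window in both Pol II libraries. It lay 5.03 kb inside the CSNK2A2 window with TBBz and 5.04 kb with DMSO, and 4.92 kb inside the CSNK2B window with TBBz and 4.90 kb with DMSO. Only 3 of the 12 regions lay away from these sites, all of them Pol II regions toward the downstream edge of the window of a catalytic-subunit gene, and none of the 3 was found in both treatments. All of the member regions were 201 bp wide.

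**Figure D2:**
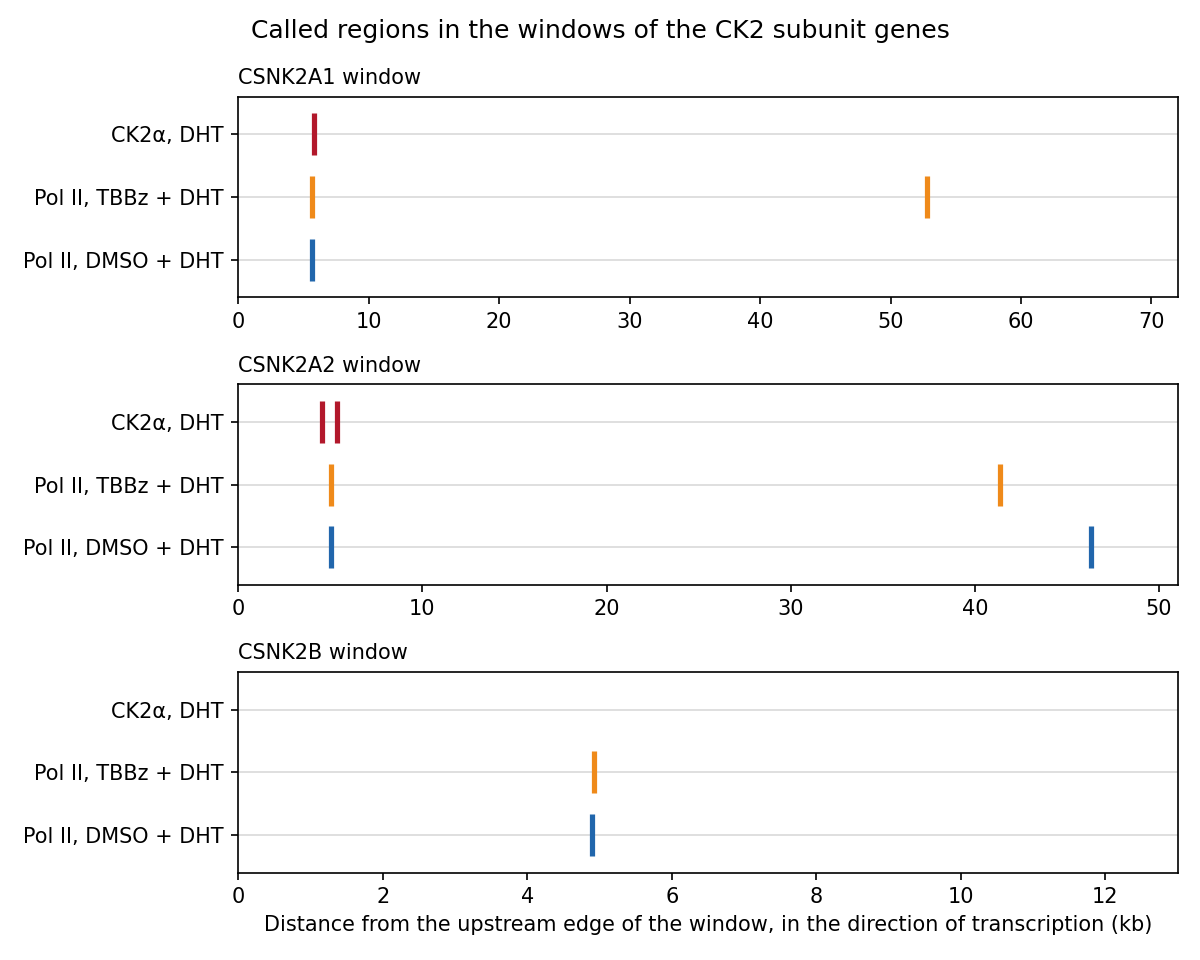
Centres of the 12 called regions, in kb from the upstream edge of each gene's window in the direction of transcription, with CK2α (red), Pol II with TBBz (orange) and Pol II with DMSO (blue) on separate rows. In each window both Pol II libraries share a site between 4.90 and 5.67 kb from the upstream edge. CK2α has regions at the catalytic-subunit genes and none in the CSNK2B window.

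A CK2α region was also called at the gene of CK2α itself. At CSNK2A1 the CK2α region was chr20:524102-524302, the Pol II region with TBBz was chr20:524235-524435 and the Pol II region with DMSO was chr20:524229-524429. The CK2α region overlapped the Pol II region by 68 bp with TBBz and by 74 bp with DMSO, and its centre lay downstream of the Pol II centre, by 133 bp with TBBz and by 127 bp with DMSO. Among all CK2α regions with a Pol II centre within 1 kb, 33.9% were at least as close with TBBz and 33.4% with DMSO, so the spacing at CSNK2A1 was of a common size. Over the whole CK2α list, 36.0% of regions overlapped a TBBz Pol II region, 36.8% a DMSO Pol II region and 28.9% both, as this one did.

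At CSNK2A2, the gene of CK2α′, CK2α regions were called on either side of the Pol II regions, without overlapping them. They were chr16:58231519-58231719, with its centre 349 bp downstream of the Pol II centre with TBBz and 339 bp downstream with DMSO, and chr16:58232355-58232555, with its centre 487 bp upstream with TBBz and 497 bp upstream with DMSO. The Pol II regions between them were chr16:58231868-58232068 with TBBz and chr16:58231858-58232058 with DMSO. The caller fixed the width of every region, so the gaps do not show whether the bound DNA was separate. The CK2α centres were 836 bp apart, where the caller's minimum distance between regions of a list was 500 bp. A CK2α centre within 500 bp on each side was found for 1.25% of all TBBz Pol II regions and 1.43% of all DMSO Pol II regions. These were 309 TBBz and 313 DMSO regions, where 8831 and 8785 had any CK2α centre within 500 bp. The upstream CK2α region is a late entry, at place 12262 of 13382, while the downstream one stands at place 6208. Without the late entry the arrangement at CSNK2A2 would be a lone CK2α region, at a distance from Pol II larger than the median over all pairs within 1 kb (221 bp with TBBz, 219 bp with DMSO). Of those pairs, 71.2% with TBBz and 68.9% with DMSO were at least as close as the downstream CK2α region, and 85.2% in each treatment were at least as close as the upstream one.

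Over the 3 windows, 3 of 3 CK2α regions had a Pol II centre within 500 bp in both treatments (exact binomial 95% interval 29.2 to 100%), against 66.4% of the whole CK2α list with TBBz and 66.8% with DMSO. Overlap was rarer, at 1 of 3 (0.840 to 90.6%). Both intervals take the regions as independent, but 2 of the 3 flank the same Pol II site at CSNK2A2. The upstream one of these passed the 500 bp limit only narrowly, at 487 bp with TBBz and 497 bp with DMSO. Of the Pol II members, 2 of 5 with TBBz and 2 of 4 with DMSO had a CK2α centre within 500 bp, against 35.6% and 40.3% of the whole TBBz and DMSO lists. A CK2α region overlapped 1 of 5 TBBz members and 1 of 4 DMSO members, against 19.4% of the TBBz list and 22.6% of the DMSO list. With so few members none of these shares can be set apart from that of its list.

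At CSNK2B, the gene of the regulatory subunit, Pol II was called in both treatments and CK2α was not. The Pol II region was chr6:31633820-31634020 with TBBz and chr6:31633802-31634002 with DMSO, and the window held 0 CK2α regions. The nearest CK2α centre was 5396 bp from the TBBz centre and 5378 bp from the DMSO centre. In the whole lists, 52.7% of TBBz regions and 48.1% of DMSO regions were at least that far from CK2α, so such a distance was common there. The whole lists include many late entries, which seldom had CK2α nearby. Among regions at similar places in their lists, most had a CK2α centre within 500 bp. The share was 60.7% with TBBz (places 15 to 20% of the way down) and 53.0% with DMSO (35 to 40%).

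That nearest CK2α region belonged to a site 476 bp outside the upstream edge of the CSNK2B window, which was looked at after the members had been seen. There CK2α (chr6:31628424-31628624) overlapped Pol II with TBBz (chr6:31628377-31628577) and with DMSO (chr6:31628392-31628592), and the CK2α and DMSO centres were 32 bp apart. The antibody thus yielded a region within 5.4 kb of the CSNK2B site in the same library. A site is listed for CK2α only if it reached 12 tags and stood 4-fold above the surrounding 10 kb, and 76.2% of the CK2α candidates were removed by that comparison with their surroundings. The lists therefore do not tell a CSNK2B site without CK2α from one with CK2α that was not called.

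The Pol II region at CSNK2B cannot be given to that gene alone. In the RefSeq annotation of GRCh38.p14 the upstream end of CSNK2B overlaps GPANK1, which is transcribed from the other strand, and its downstream end overlaps LY6G5B. The next genes that do not overlap CSNK2B are C6orf47 upstream and LY6G5C downstream. The site just outside the CSNK2B window was not assigned to any of these genes. CSNK2A1 overlaps no other annotated gene and lies between TBC1D20 and TCF15. CSNK2A2 overlaps the long noncoding RNA LOC101927556 at its downstream end.

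**Figure D3:**
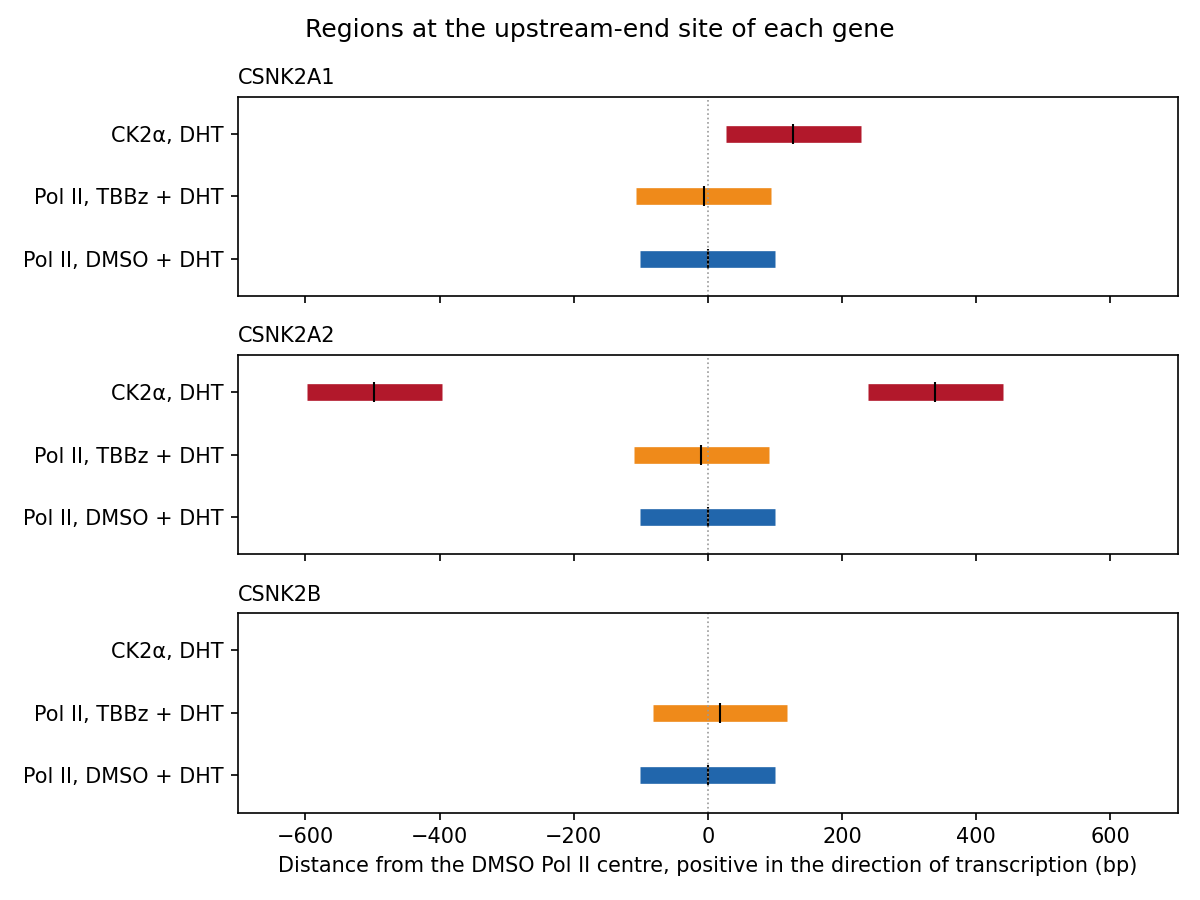
Called regions (bars, with the centre as a black mark) within 700 bp of the DMSO Pol II centre at the upstream-end site of each gene, in bp in the direction of transcription, with CK2α in red, Pol II with TBBz in orange and Pol II with DMSO in blue. CK2α lies 127 bp downstream at CSNK2A1, 339 bp downstream and 497 bp upstream at CSNK2A2, and has no bar at CSNK2B, while the TBBz and DMSO regions nearly coincide at all 3 genes.

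The second question was whether Pol II stood at the same places in cells given the CK2 inhibitor. At the upstream-end site of each of the 3 genes, the regions with TBBz and DMSO overlapped. The centres were 6 bp apart at CSNK2A1 with an overlap of 195 bp, 10 bp apart at CSNK2A2 with an overlap of 191 bp, and 18 bp apart at CSNK2B with an overlap of 183 bp. Across the 18973 TBBz regions with a DMSO centre within 1 kb, the median distance was 25.0 bp (quartiles 10.0 and 82.0 bp), and 17.5%, 26.4% and 41.1% of these pairs were at least as close as those at CSNK2A1, CSNK2A2 and CSNK2B. In the direction of transcription the TBBz centre was upstream of the DMSO centre at CSNK2A1 and CSNK2A2 and downstream of it at CSNK2B, so the small offsets had no common direction.

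Over the 3 windows, 3 of 5 TBBz regions overlapped a DMSO region (60.0%, exact binomial 95% interval 14.7 to 94.7%), against 65.0% of the whole TBBz list. In the other direction, 3 of 4 DMSO regions overlapped a TBBz region (75.0%, 19.4 to 99.4%), against 73.8% of the whole DMSO list. Counting centres within 500 bp left both member shares as they were, against 72.3% of the TBBz list and 82.1% of the DMSO list. Sharing at the CK2 genes was thus near that of the lists as a whole, and so few regions allow almost any share. The intervals cover counting error only.

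The order of the genes was the same in both Pol II lists. CSNK2A1 came first, at place 490 of 24782 with TBBz and place 3662 of 21819 with DMSO. CSNK2B followed at place 4778 with TBBz and place 7734 with DMSO, close before CSNK2A2 at place 5185 with TBBz and place 8159 with DMSO. The deposited order is taken to follow the strength of a region, which no score or tag count in the lists can check. Over all chromosomes together, the Spearman correlation of place with the caller's candidate number was 0.846 for CK2α, 0.857 for TBBz and 0.873 for DMSO. The candidate number is counted within a chromosome, so this value can fall below 1 even where the orders match within each chromosome. No correlation within chromosomes was computed, so agreement of the orders was not checked. Places in 2 lists of different length and depth say nothing of a change in Pol II between the treatments. By the caller's own numbering of candidates within a chromosome, the CSNK2A1 region was number 14 with TBBz and number 105 with DMSO on chromosome 20. The highest numbers listed on that chromosome were 1096 with TBBz and 1455 with DMSO. These numbers likewise say nothing of a change between the treatments. In the CK2α list, the region at CSNK2A1 stood at place 5351 of 13382, before both of those at CSNK2A2.

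At those places most regions were shared in any case. In the stretch of 5% of the TBBz list that holds the region, 91.9% of regions overlapped a DMSO region for CSNK2A1, 86.0% for CSNK2B and 83.9% for CSNK2A2. In the DMSO list, 89.6% of the regions in the stretch around CSNK2A1 overlapped a TBBz region, and 86.2% in the stretch that holds both CSNK2B and CSNK2A2.

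The 3 regions found in 1 treatment stood in the downstream part of the windows of the catalytic-subunit genes and at the end of their lists. Whether they lie within the genes was not determined, since no hg19 annotation was used. With TBBz, chr20:477141-477341 lay in the CSNK2A1 window, 47094 bp downstream of the upstream-end region, at place 23925 of 24782. The nearest DMSO centre to it was 34110 bp away. Also with TBBz, chr16:58195516-58195716 lay in the CSNK2A2 window, 36352 bp downstream of the upstream-end region, at place 24548. With DMSO, chr16:58190604-58190804 lay in the same window, 41254 bp downstream of the upstream-end region, at place 20907 of 21819. The TBBz and DMSO regions in the downstream part of the CSNK2A2 window were 4912 bp apart. No CK2α centre was within 34 kb of any of the 3.

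Regions at such late places were seldom shared anywhere in the genome. In the last 5% of the TBBz list 20.3% of regions overlapped a DMSO region, and in the last 5% of the DMSO list 36.2% overlapped a TBBz region. The threshold also differed between the libraries: 13 tags with TBBz, which corresponds to 9.00 tags at the depth of the DMSO library, against 11 tags with DMSO. A TBBz region just over its threshold could therefore fall under that of the DMSO library at an equal share of tags. Whether it did so here was not tested, since no tag count per region is at hand. For the region found only with DMSO the thresholds stand the other way. The DMSO threshold corresponds to 15.9 tags at the depth of the TBBz library, above the 13 required there. Why this region was not called with TBBz was likewise not tested. The caller's comparison with the surrounding 10 kb had also removed 35.3% of the candidates with TBBz and 53.7% with DMSO, and Pol II spread evenly along these genes would not pass it.

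**Figure D4:**
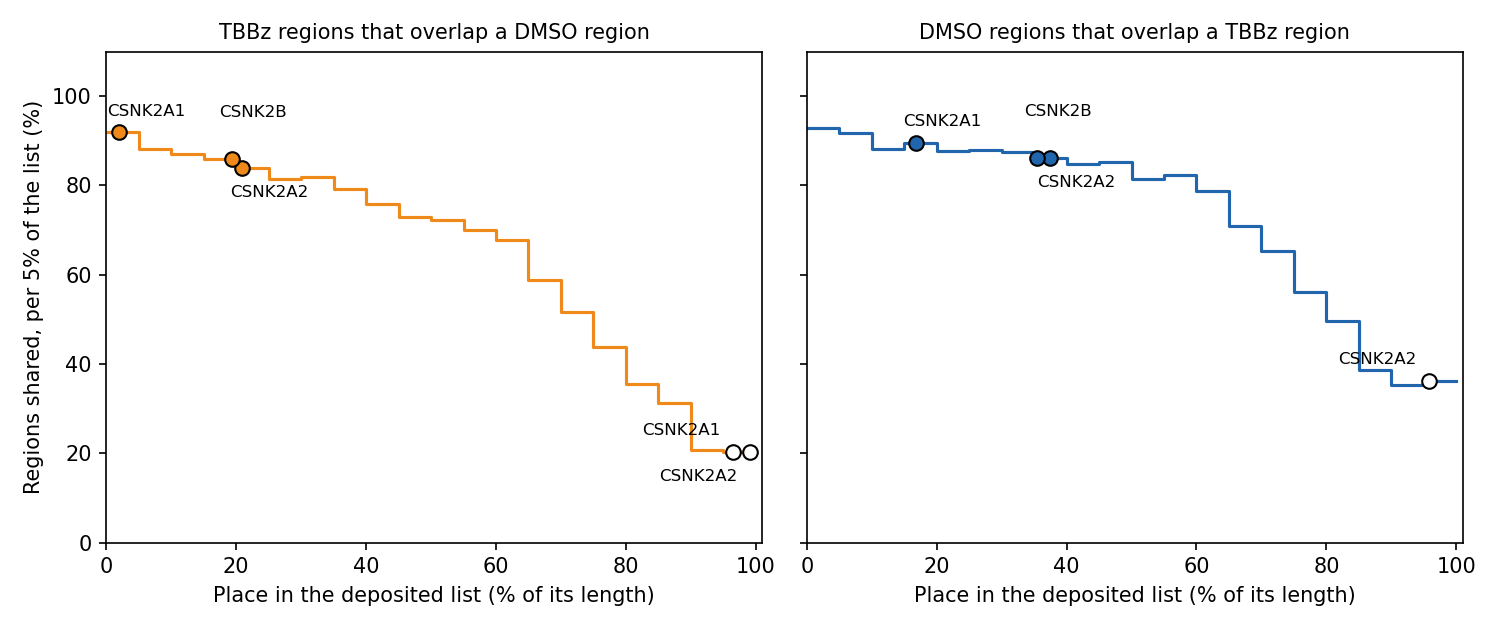
Share of Pol II regions that overlap a region of the other treatment, per 5% of the deposited list, for TBBz (left, orange) and DMSO (right, blue), with the regions at the CK2 subunit genes placed on the line at their position (filled, shared; open, not shared). The 6 filled points lie before 40% of the list, in stretches of which 83.9 to 91.9% of regions are shared, and the 3 open points lie past 95%.

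The number of regions per gene was then set against the rest of the genome. For this, all chromosomes were divided into tiles as wide as each window. Over all tiles of 72 kb, 20.1% held at least as many CK2α regions as CSNK2A1, 14.1% as many TBBz regions and 27.5% as many DMSO regions. For CSNK2A2 and tiles of 51 kb the shares were 4.84%, 9.94% and 8.72% in the same order, and for CSNK2B and tiles of 13 kb they were 8.42% for TBBz and 7.72% for DMSO. Most of the genome holds no region, and a window around a gene with Pol II is not a random stretch, so tiles with at least 1 region of any list were also counted alone. Of 14188 such tiles of 72 kb, 60.9% held at least 1 CK2α region, 42.8% at least 2 TBBz regions and 83.3% at least 1 DMSO region, as CSNK2A1 did; 52.8% held regions of all 3 lists. Of 16397 tiles of 51 kb, 17.9% held at least 2 CK2α regions, as CSNK2A2 did, while 36.7% held at least 2 TBBz regions and 32.2% at least 2 DMSO regions; 48.9% held regions of all 3 lists. Of 24438 tiles of 13 kb, 29.3% held both Pol II lists and no CK2α, as CSNK2B did, and 35.7% held all 3 lists. The pair of CK2α regions at CSNK2A2 thus had the smallest of these shares, though tiles of different widths are not on one scale. The pair also rests on the late entry at place 12262 of 13382. With the first 50% of the list, CSNK2A2 had 1 CK2α region.

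Beyond the upstream edge of the CSNK2A1 window the next region was 126 kb away for CK2α, 96.4 kb for TBBz and 96.3 kb for DMSO. Beyond that of the CSNK2A2 window it was 189 kb away for CK2α, 33.4 kb for TBBz and 46.9 kb for DMSO. Around CSNK2B, which lies in a dense cluster of genes, the next region upstream was 0.476 kb from the window for CK2α, 0.523 kb for TBBz and 0.508 kb for DMSO, and the next one downstream was 28.7 kb away for CK2α, 6.70 kb for TBBz and 29.0 kb for DMSO. Beyond the downstream edge, the next region was 15.1 kb away for CK2α, 14.9 kb for TBBz and 14.9 kb for DMSO at CSNK2A1, and 40.7 kb for CK2α, 22.8 kb for TBBz and 22.8 kb for DMSO at CSNK2A2. Upstream, the next region was closest at CSNK2B in each of the 3 lists. Downstream, it was closest at CSNK2B in the TBBz list and at CSNK2A1 in the CK2α and DMSO lists.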

How the data were processed

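Per the submitters' processing notes, Bowtie and HOMER were used with build hg19, with no version given in the sources used here. Regions of 200 bp, at least 500 bp apart within a list, were called by the authors library by library in HOMER's factor style, per the file headers. Fragments were set to 150 bp, the false discovery rate was 0.001, and the command lists no control. The deposited score is 1 for every region and was not used; the place in the deposited list took its part. Positions are printed counting from 1.

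A region was a member if its centre lay in a window. Regions overlapped if they shared at least 1 bp, and distances were taken between centres. Shares have exact binomial (Clopper-Pearson) 95% intervals; there was no test between groups. All member regions are named, by the rule set for named regions. The members and lists were chosen with earlier results of these data known. Other genes tied to CK2 had been planned but need an hg19 annotation, which was not used here. RefSeq sequences and gene neighbours come from GRCh38.p14, and none of its positions was converted. The overlap script was tested on simulated data. Python 3.11.15, NumPy 2.4.6, SciPy 1.17.1 and Matplotlib 3.10.9 were used.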

Additional observations from a re-analysis of the deposited data

How the results depend on the processing

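With 3 to 5 regions per list, 1 region decides most values. No paired analysis was possible because only 1 library per group was at hand. With both Pol II lists cut to equal numbers, TBBz regions numbered 1 at CSNK2A1 and 1 at CSNK2A2, and 100% of the TBBz members overlapped DMSO, by construction, since both unshared TBBz members stand past place 21819. With the first 50% of each list, there was 1 TBBz region at CSNK2A1, and CSNK2A2 had 1 region each of CK2α, TBBz and DMSO. With windows narrowed by 5 kb, CSNK2A2 had 1 CK2α and 1 DMSO region, and CSNK2B had 0 TBBz and 0 DMSO regions, because the site lay within 5 kb of the edge. With windows widened by 5 kb, CSNK2B had 1 CK2α, 2 TBBz and 2 DMSO regions, which adds the site just outside its window. CK2α members on Pol II were 33.3% for TBBz and for DMSO by 1 bp of overlap, 0% for both where 50% of the shorter region had to be covered, and 100% for both with centres within 500 bp, 1 kb or 2 kb. Of the other results, the share of tiles was higher when tiles with no region were left out (not for CK2α at CSNK2B, where any tile holds at least 0). With candidate numbers used, the place of 7 of the 12 regions moved by over 10 percentage points. Candidate numbers were taken as a percent of the highest listed on the chromosome, and places as a percent of the whole list. The scales thus differ, all 12 values were lower with candidate numbers, and the moves do not show a changed order. Assigning regions by overlap with the window changed nothing. Tag counts per region were not at hand, so what depth limits was not tested.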
